A study of Mus musculus with 24 samples.

Results

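Insulin and the insulin-like growth factors act through receptor tyrosine kinases, docking adaptors, phosphoinositide 3-kinase (PI3K), the kinase Akt and the kinase mTOR. A list of 42 mouse genes named for this chain was followed across hearts in which PI3K activity had been changed by a transgene and which had been infarcted or sham operated. The members were chosen by name, with earlier results of these data known. They are 2 ligands, 6 binding proteins, 3 receptors, 4 adaptors, 7 PI3K subunits, 3 phosphatases, 7 genes around Akt and 10 around mTOR. Of these, 41 were measured among 14763 tested genes. *Rps6kb1* is not analysed here.

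The hearts came from FVB/N mice in 6 groups of 4 arrays. The caPI3K MI and caPI3K sham mice carried a constitutively active PI3K transgene expressed in the heart, labelled as raising PI3K activity. The dnPI3K MI and dnPI3K sham mice carried a dominant negative PI3K transgene, labelled as cardiac-specific and as lowering PI3K activity, and the Ntg MI and Ntg sham mice were nontransgenic. A myocardial infarction (MI) or a sham operation was done at 4 months of age and the heart was taken 8 weeks later, on a standard diet in all groups. The sources used here do not give the transgenes' promoters or the sex of the mice. Hearts were homogenized one by one, but nothing says that every array is another animal, so the p-values speak only for the spread among these arrays, which may be technical.

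In the heart, IGF1 and insulin bind the receptors IGF1R and INSR, which phosphorylate the docking proteins IRS1 and IRS2. These recruit PI3K, whose lipid product brings Akt and its activating kinase PDK1 to the membrane, and SHIP phosphatases remove that lipid. Akt acts on glycogen synthase kinase 3, FoxO transcription factors and mTOR, and the pathway is known for physiological growth of the heart. Active mTOR and Akt also dampen the pathway's own upper steps, a feedback known from several cell types.

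Values are log2 of the deposited signal plus 11.2, and each gene is read by its brightest probe set. Probe sets differ in brightness, so levels are compared between arrays and not between genes. Gene coordinates are those of RefSeq on GRCm38.p6. Values of 4 arrays run from replicate 1 to 4, numbers that name the arrays and do not pair them. A gene is called changed where limma's p, adjusted over all tested genes by the Benjamini-Hochberg method, is below 0.05, and "rose" and "fell" are used only of called genes. Array pairs correlated at 0.911 to 0.964, and 10 cardiomyocyte markers averaged 14.94 to 15.48 on all arrays. All 10 read lower after MI in each genotype. Their median changes were -0.08 in caPI3K, -0.21 in dnPI3K and -0.22 in Ntg hearts, and 1 was called, in dnPI3K hearts. Ntg sham replicate 4 stood apart, with a mean of 12.29 over 10 fibroblast markers, against 11.23 to 11.43 on the other Ntg sham arrays. Replicates 1, 2 and 3 of caPI3K sham carried Y-linked signal and little *Xist* (6.77 to 7.08, against 12.65 on replicate 4), unlike every array of the other 5 groups. Calls that change without these arrays are given with and without them. Groups whose arrays do not overlap are described as such, which is no result by itself. Between sham groups this held for 16.7% of all tested genes in caPI3K against dnPI3K. It held for 5.63% in dnPI3K against Ntg and 5.61% in caPI3K against Ntg. For MI it held for 9.4% in caPI3K, 13.4% in dnPI3K and 4.72% in Ntg hearts. Between infarcted groups it was not counted over all genes.

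The promoter windows of *Irs1* and *Irs2* are shown because these adaptors had the largest log2 differences of all members between caPI3K and dnPI3K sham hearts, and because they alone among the members with a window hold the insulin response sequence CAAAACA or its reverse complement TGTTTTG. This word was searched on both strands, 250 bases before to 50 after the start of transcription in RefSeq (GRCm38.p6). It lies in 6.28% of all 32851 windows, which belong to 27025 genes, 7.2% of which hold it. Among the 39 members with a window it was found in 2. In *Irs1* it lies at 111 and 32 bases before the start and in *Irs2* at 37 bases before it. Capitals mark the word and both genes are on the minus strand, chr1:82291425-82291590 and chr8:11008920-11009006.
Irs1: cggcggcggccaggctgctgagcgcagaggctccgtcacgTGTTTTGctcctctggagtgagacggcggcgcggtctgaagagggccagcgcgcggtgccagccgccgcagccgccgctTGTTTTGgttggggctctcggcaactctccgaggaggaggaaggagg
Irs2: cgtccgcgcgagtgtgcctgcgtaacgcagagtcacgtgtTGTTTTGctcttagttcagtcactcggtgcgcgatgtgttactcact

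The core FoxO word TGTTTAC, or its reverse complement GTAAACA, lies in 3.65% of all windows and in those of 2 members, *Pik3cg* and *Akt1*. It is shown for *Akt1*, which differed between caPI3K and dnPI3K sham hearts, at 161 bases before the start on the minus strand, chr12:112674999-112675085. These are matches of letters and not measured binding sites. *Insr*, *Trib1* and *Eif4ebp1* have no window in the table.
Akt1: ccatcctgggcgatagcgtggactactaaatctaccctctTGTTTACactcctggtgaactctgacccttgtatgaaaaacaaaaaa

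The comparison of the transgenic sham groups called the most members. Between caPI3K and dnPI3K sham hearts 14 of 41 members were called, 7 higher and 7 lower in caPI3K. Of all tested genes 9.88% were called there, 5.38% higher and 4.5% lower. Between dnPI3K and Ntg sham hearts 5 members were called, 2 higher and 3 lower in dnPI3K, and of all tested genes 1.12%, with 0.413% higher and 0.704% lower. No member was called between caPI3K and Ntg sham hearts by limma, where 0.257% of all genes were. At an unadjusted limma p below 0.05 there were 9 members. The share of all tested genes at that unadjusted threshold was not counted in any comparison. Counts at an unadjusted p are therefore not read as a result about the members. The 3 sham comparisons share arrays, so their values are set side by side and not counted against each other. All caPI3K sham arrays are numbered 1410 to 1417, a run that holds no other group. In comparisons with that group, including MI in caPI3K hearts, genotype or operation cannot be told apart from that run of numbers.

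Infarction called 3 members in caPI3K hearts, 5 in dnPI3K hearts and 2 in Ntg hearts, and all but 1 of these calls were rises. In caPI3K hearts, with 3 members higher and 0 lower, 1.11% of all tested genes were called, 0.853% higher and 0.257% lower. In dnPI3K hearts, with 4 members higher and 1 lower, the share was 9.42%, with 4.23% higher and 5.19% lower, and the members' count is near that background. In Ntg hearts, with 2 members higher and 0 lower, it was 0.779%, with 0.684% higher and 0.0948% lower. The median change of the 41 members was -0.01 in caPI3K, 0.03 in dnPI3K and 0.00 in Ntg hearts, against 0.00, 0.01 and 0.00 over all tested genes. No member, and 0% of all genes, was called for a difference in the MI effect between genotypes by limma. At an unadjusted p below 0.05 there were 5 members between caPI3K and dnPI3K, 2 between caPI3K and Ntg and 4 between dnPI3K and Ntg. The share of all tested genes at that unadjusted threshold was not counted.

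Comparisons between the infarcted groups were added after the sham values had been seen, because of the Y-linked signal on caPI3K sham arrays. There 5 members were called between caPI3K MI and dnPI3K MI, 3 higher and 2 lower in caPI3K, and of all genes 4.21%, with 2.91% higher and 1.29% lower. Between dnPI3K MI and Ntg MI 3 were called, 2 higher and 1 lower in dnPI3K, and of all genes 2.58%, with 0.65% higher and 1.93% lower. None was called between caPI3K MI and Ntg MI (0%). There 1 member had an unadjusted p below 0.05, and the share of all tested genes at that threshold was not counted. The 5 and the 3 were all called with the same sign in the sham hearts, and all 14 sham differences between caPI3K and dnPI3K kept their sign after infarction. How often this holds over all tested genes was not counted, so it is not read as a trait of the members.

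**Figure D1:**
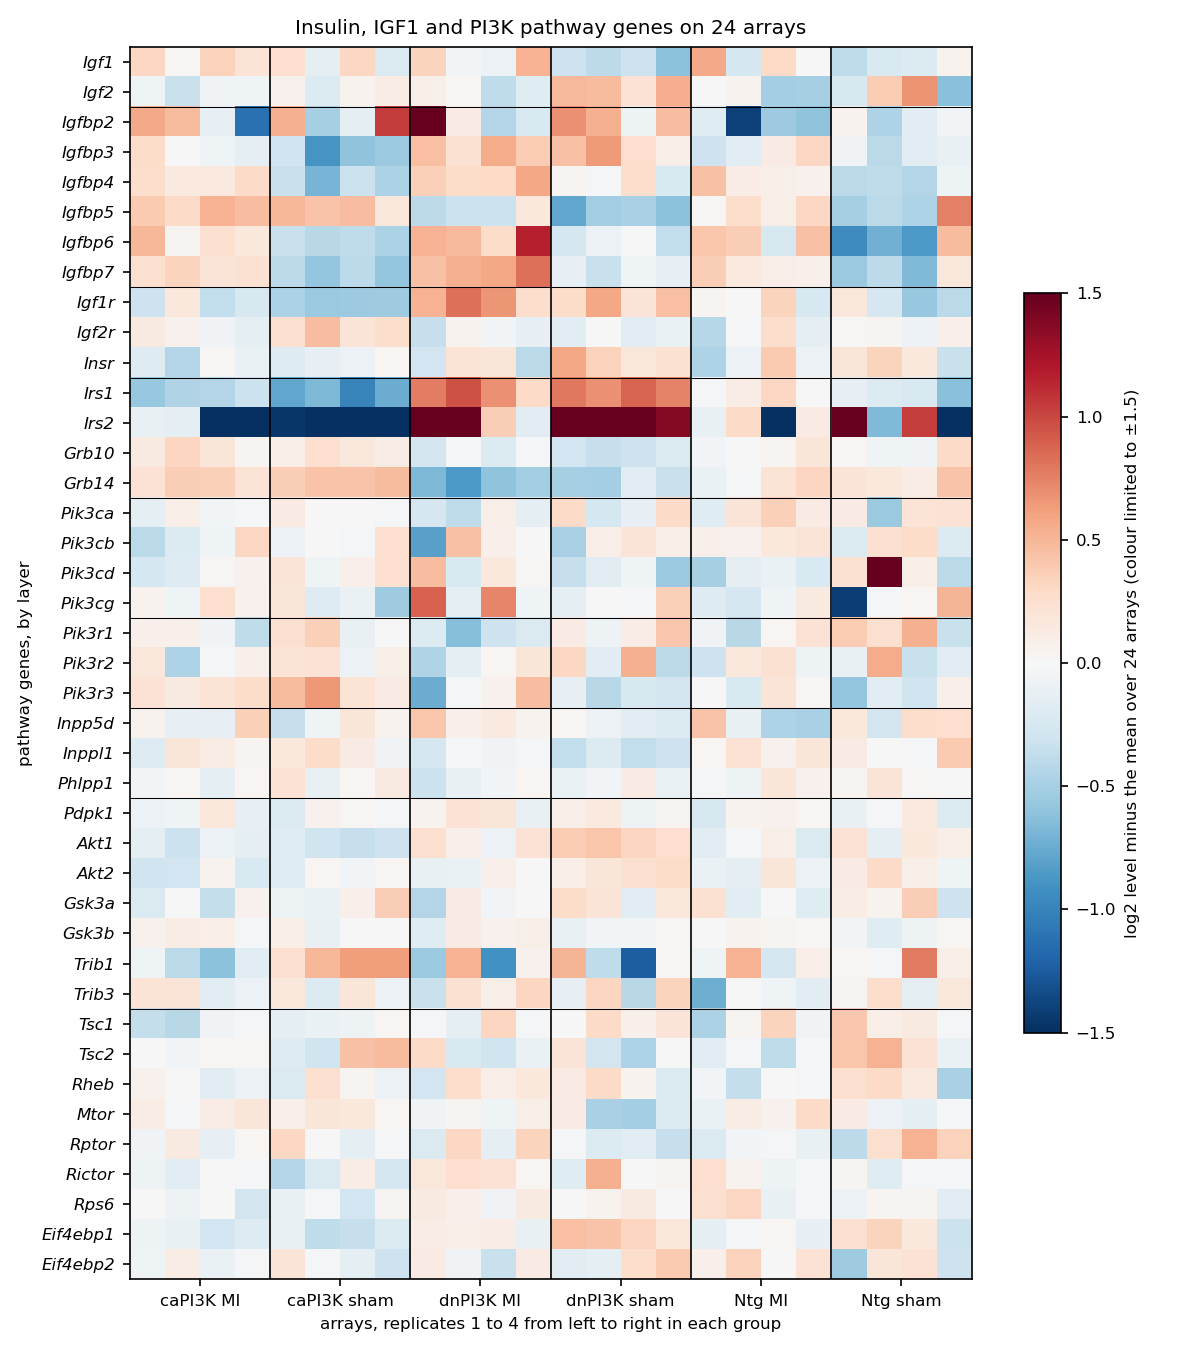
Levels of the 41 measured pathway genes (rows, ordered from ligands to mTOR) on the 24 arrays (columns, 4 per group), as log2 level minus the gene's mean over all arrays, with colour limited to ±1.5. The Irs1 row separates the transgenic genotypes, with levels at 10.37 to 10.70 on caPI3K sham arrays and 12.05 to 12.24 on dnPI3K sham arrays, while the row of Igfbp4 separates infarcted from sham arrays within each genotype.

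*Igf1* (chr10:87858265-87937047), the growth factor made in the heart as well as in the liver, rose after infarction in dnPI3K hearts. It read 10.09, 9.71, 9.67 and 10.28 on dnPI3K MI arrays, against 9.45, 9.36, 9.45 and 9.15 on dnPI3K sham arrays. Every infarcted array lay above every sham array, with a log2 change of 0.59 (SE 0.16, limma adjusted p = 0.0181). In caPI3K hearts *Igf1* read 10.07, 9.78, 10.11 and 9.97 after MI, against 10.01, 9.61, 10.07 and 9.55 after sham, and in Ntg hearts 10.32, 9.49, 10.06 and 9.76 after MI, against 9.38, 9.54, 9.55 and 9.82 after sham. Both pairs of groups overlapped, and neither the change of 0.17 in caPI3K nor that of 0.34 in Ntg was called (adjusted p = 0.748 and 0.4). The difference between the MI effects, caPI3K minus dnPI3K, was -0.41 with a 95% interval of -0.88 to 0.05 (limma adjusted p = 0.562). Sham hearts of dnPI3K had the lowest *Igf1* mean of the 6 groups, 9.35 ± 0.14 (SD, n = 4), against 9.81 ± 0.27 in caPI3K sham hearts, a difference that missed the threshold at 0.46 (SE 0.16, limma adjusted p = 0.0721). Of the other probe sets of *Igf1*, 1 was called in dnPI3K hearts at 0.74 and the remaining ones read 0.41 and 0.46. The *Igf1* call was lost without dnPI3K sham replicate 4, dnPI3K MI replicate 1 or dnPI3K MI replicate 4, at changes of 0.47 to 0.54 (adjusted p 0.0533 to 0.0872). *Igf2*, the fetal growth factor, was not called in any comparison with all arrays, with its largest change, -0.55, after MI in dnPI3K hearts (adjusted p = 0.0793).

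The binding proteins hold IGFs outside the cell and set how much reaches the receptor. *Igfbp4* (chr11:99040005-99052655) rose after infarction in all 3 genotypes. It read 12.65, 12.53, 12.53 and 12.67 on caPI3K MI arrays, against 12.05, 11.69, 12.06 and 11.91 on caPI3K sham arrays, with a log2 change of 0.67 (SE 0.11, limma adjusted p = 0.000891). In dnPI3K hearts the values were 12.74, 12.66, 12.68 and 12.96 after MI, against 12.42, 12.37, 12.65 and 12.16 after sham, with a log2 change of 0.36 (SE 0.11, limma adjusted p = 0.0281). In Ntg hearts they were 12.83, 12.50, 12.47 and 12.45 after MI, against 11.98, 12.00, 11.95 and 12.31 after sham, with a log2 change of 0.50 (SE 0.11, limma adjusted p = 0.0203). In all 3 genotypes the lowest infarcted array lay above the highest sham array. Of the 5 other probe sets of *Igfbp4*, all read higher after MI, but only 2 were called in caPI3K, none in dnPI3K (0.11 to 0.38, adjusted p 0.0638 to 0.729) and 2 in Ntg hearts.

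*Igfbp7*, which binds IGFs weakly, also rose in all 3 genotypes by its brightest probe set. It read 13.76, 13.85, 13.72 and 13.75 on caPI3K MI arrays, against 13.13, 12.94, 13.13 and 12.94 on caPI3K sham arrays, with a log2 change of 0.74 (SE 0.12, limma adjusted p = 0.00131). In dnPI3K hearts the values were 13.96, 14.06, 14.10 and 14.35 after MI, against 13.39, 13.19, 13.45 and 13.40 after sham, with a log2 change of 0.76 (SE 0.12, limma adjusted p = 0.000239). In Ntg hearts they were 13.89, 13.67, 13.62 and 13.60 after MI, against 12.97, 13.13, 12.86 and 13.69 after sham, with a log2 change of 0.53 (SE 0.12, limma adjusted p = 0.0263). The groups were apart in caPI3K and dnPI3K hearts, and in Ntg hearts they overlapped through sham replicate 4 alone. Both other probe sets of *Igfbp7* are far dimmer, and of these only 1 was called, in dnPI3K hearts (0.76, adjusted p = 0.0106). They read 0.65 and 1.26 in caPI3K hearts (adjusted p = 0.0997 and 0.496) and 0.29 and -0.20 in Ntg hearts (0.638 and 0.957), and the second read 0.14 in dnPI3K hearts (0.937). With the mean over its probe sets the dnPI3K call was lost (0.55, adjusted p = 0.129), and so was the Ntg call. The lowest Ntg change over the alternative settings of the fit was 0.21. Without Ntg sham replicate 4 the changes in Ntg hearts were 0.58 for *Igfbp4* and 0.71 for *Igfbp7* (adjusted p = 0.00119 and 1.76e-05).

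*Igfbp3* (chr11:7206086-7215498), the main carrier of IGFs in blood, rose after infarction in caPI3K hearts and differed between the transgenic sham groups. It read 9.85, 9.58, 9.51 and 9.43 on caPI3K MI arrays, against 9.28, 8.70, 8.97 and 9.02 on caPI3K sham arrays, with a log2 change of 0.60 (SE 0.14, limma adjusted p = 0.0325). On dnPI3K arrays it read 10.02, 9.80, 10.14 and 9.96 after MI, against 10.01, 10.22, 9.83 and 9.66 after sham, with a change of 0.05 that was not called (adjusted p = 0.883). Ntg arrays read 9.27, 9.41, 9.70 and 9.89 after MI, against 9.52, 9.17, 9.41 and 9.47 after sham. The dnPI3K sham arrays lay above those of both other sham groups, and 3 caPI3K sham arrays lay below every other array. *Igfbp3* fell in caPI3K sham relative to dnPI3K sham hearts, with a log2 change of -0.94 (SE 0.14, limma adjusted p = 6.3e-05). A second probe set of *Igfbp3* was called with the same sign in both comparisons, at 1.12 for MI in caPI3K hearts and -1.83 for caPI3K sham against dnPI3K sham. *Igfbp4* fell as well, with a log2 change of -0.47 (SE 0.11, limma adjusted p = 0.00365), and 2 of its 5 other probe sets were called.

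*Igfbp5* (chr1:72858065-72874865) ran the other way between the genotypes. It read 11.75, 11.64, 11.88 and 11.82 on caPI3K MI arrays and 11.85, 11.79, 11.83 and 11.54 on caPI3K sham arrays, against 10.97, 11.04, 11.04 and 11.52 on dnPI3K MI arrays and 10.58, 10.84, 10.87 and 10.74 on dnPI3K sham arrays. All caPI3K arrays lay above all dnPI3K arrays. The difference was 1.00 (SE 0.18, limma adjusted p = 0.000391) between the sham groups and 0.63 (SE 0.18, limma adjusted p = 0.0393) between the infarcted groups. Ntg arrays read 11.38, 11.63, 11.44 and 11.67 after MI, against 10.87, 10.95, 10.90 and 12.12 after sham, where replicate 4 was again far above the rest. Infarction called *Igfbp5* in no genotype with all arrays. Without Ntg sham replicate 4 it was called in Ntg hearts, at 0.62 in place of 0.32 (adjusted p = 0.000893), and in dnPI3K hearts at 0.39 (0.0132).

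*Igfbp6*, which prefers IGF2, rose after infarction in dnPI3K hearts. It read 11.00, 10.96, 10.76 and 11.65 on dnPI3K MI arrays, against 10.22, 10.40, 10.48 and 10.11 on dnPI3K sham arrays, with a log2 change of 0.79 (SE 0.22, limma adjusted p = 0.0191). In caPI3K hearts the values were 10.98, 10.53, 10.71 and 10.64 after MI, against 10.14, 10.06, 10.10 and 10.00 after sham, and in Ntg hearts 10.89, 10.85, 10.24 and 10.91 after MI, against 9.53, 9.75, 9.62 and 10.95 after sham. The changes there were 0.64 in caPI3K and 0.76 in Ntg hearts, and were not called (adjusted p = 0.168 and 0.104). Without Ntg sham replicate 4, which read 10.95, both were called, at 0.64 in caPI3K (adjusted p = 0.0222) and 1.09 in Ntg hearts (0.000129). The differences of MI effects between genotypes were not called for any of the binding proteins. *Igfbp2* was dim, above the 40th percentile of its array on 8 of 24 arrays, and was not called.

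All 10 fibroblast markers read higher after infarction in each genotype, as *Igfbp4* and *Igfbp7* did. Not every binding protein did so. *Igfbp3* averaged 9.93 after sham and 9.98 after MI in dnPI3K hearts, and *Igfbp5* 11.75 and 11.77 in caPI3K hearts. The 10 markers were all measured and none was near the bottom of the scale, the lowest level of any on any array being 7.68 (*Col1a1*). Their mean was 12.24 to 12.39 on caPI3K MI arrays, against 11.46 to 11.78 on caPI3K sham arrays. It was 12.39 to 12.69 on dnPI3K MI arrays, against 11.48 to 11.95 on dnPI3K sham arrays, and 12.15 to 12.40 on Ntg MI arrays, against 11.23 to 12.29 on Ntg sham arrays. Infarction raised 3 of the 10 fibroblast markers in caPI3K, 5 in dnPI3K and 4 in Ntg hearts. Of 10 macrophage markers, 10 read higher after MI in caPI3K, 9 in dnPI3K and 10 in Ntg hearts. Their median changes were 0.38, 0.26 and 0.25, and none was called. The part of both sets of markers in the binding protein results was not tested. In whole hearts more cells of a type and more RNA per cell cannot be told apart. Leaving out single arrays ended the *Igfbp4* and *Igfbp7* calls in Ntg hearts. For *Igfbp4* these were sham replicates 1, 2 and 3 and MI replicate 1 (changes 0.41 to 0.48), and for *Igfbp7* also MI replicates 2 and 3 (changes 0.43 to 0.56). With caPI3K sham replicate 4 as the only caPI3K sham array the changes after MI were 0.58 for *Igfbp3*, 0.68 for *Igfbp4* and 0.83 for *Igfbp7*, and none was called (adjusted p = 0.592, 0.13 and 0.121). The *Igfbp3* call in caPI3K hearts was lost without sham replicate 2, 3 or 4 or MI replicate 1, 2 or 3, at changes of 0.50 to 0.63. In dnPI3K hearts *Igfbp4* was lost without sham replicate 1, 2 or 4 or MI replicate 4, and *Igfbp6* without sham replicate 1 or 4 or MI replicate 4, at changes of 0.28 to 0.37 and 0.61 to 0.76. The *Igfbp5* difference between infarcted caPI3K and dnPI3K hearts, 0.57 to 0.67, was lost without any 1 caPI3K MI array or without dnPI3K MI replicate 1, 2 or 3.

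**Figure D2:**
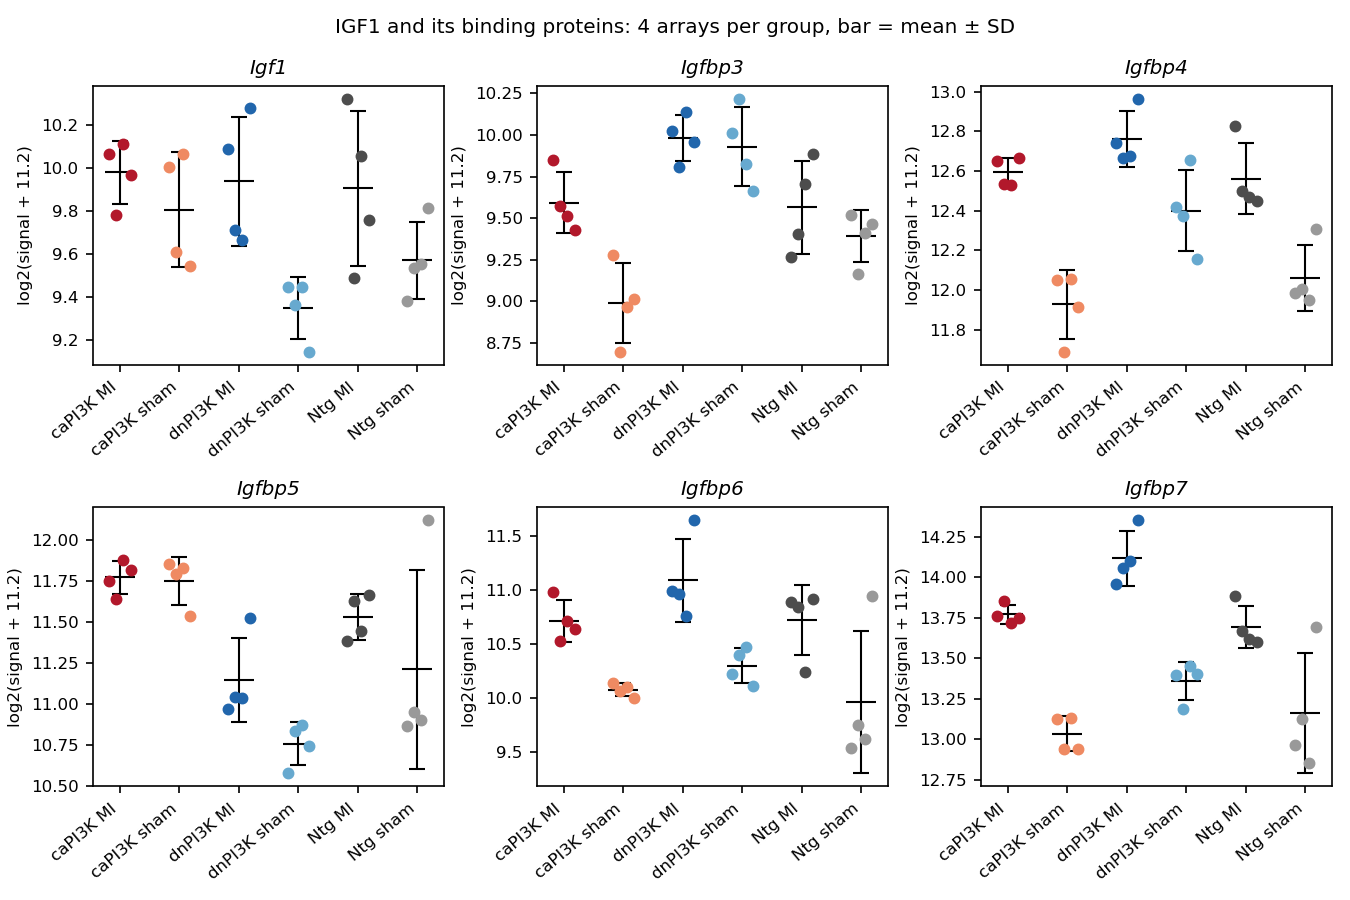
Levels of Igf1 and 5 IGF-binding proteins, log2(signal + 11.2), with 1 point per array and mean ± SD bars for the 6 groups of 4 arrays. Igfbp4 and Igfbp7 lie higher after MI in all 3 genotypes, Igfbp5 is at 11.54 or above on every caPI3K array and at 11.52 or below on every dnPI3K array, and Ntg sham replicate 4 reads 12.12 for Igfbp5 while the other 3 Ntg sham arrays read 10.87 to 10.95.

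The receptor *Igf1r* (chr7:67952257-68233668), through which IGF1 acts, was highest in dnPI3K and lowest in caPI3K hearts. It read 9.43, 9.90, 9.37 and 9.51 on caPI3K MI arrays and 9.27, 9.19, 9.20 and 9.22 on caPI3K sham arrays. On dnPI3K MI arrays it read 10.27, 10.58, 10.40 and 10.02 and on dnPI3K sham arrays 10.02, 10.33, 9.95 and 10.20. In Ntg hearts *Igf1r* read 9.78, 9.76, 10.08 and 9.50 after MI, against 9.92, 9.50, 9.18 and 9.35 after sham. All dnPI3K arrays lay above all caPI3K arrays and, after sham, above all Ntg arrays, while Ntg arrays overlapped those of caPI3K.

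*Igf1r* fell in caPI3K relative to dnPI3K hearts, with a log2 change of -0.90 (SE 0.15, limma adjusted p = 0.000147) between sham groups and one of -0.76 (SE 0.15, limma adjusted p = 0.00213) between infarcted groups. It rose in dnPI3K relative to Ntg hearts, by 0.64 (SE 0.15, limma adjusted p = 0.0261) after sham and 0.54 (SE 0.15, limma adjusted p = 0.0482) after MI. The sham rise was 0.64 over all arrays, and 0.47 and 0.81 within the arrays numbered 415 to 418 and those numbered 1181 to 1191, each of which holds 2 arrays of both groups. It was lost without Ntg sham replicate 2, 3 or 4 or dnPI3K sham replicate 2 or 4, at changes of 0.54 to 0.64, and the rise after MI was lost without any 1 of 17 arrays, at 0.44 to 0.55. None of the 4 dimmer probe sets of *Igf1r* was called, and 1 of them read -0.11 for dnPI3K sham against Ntg sham.

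*Insr*, the insulin receptor, was called in no comparison with all 6 groups in the fit and no array weights. It read 10.83, 10.58, 11.04 and 10.92 on caPI3K MI arrays and 10.83, 10.90, 10.94 and 11.05 on caPI3K sham arrays, 10.73, 11.23, 11.20 and 10.62 on dnPI3K MI arrays and 11.61, 11.37, 11.19 and 11.25 on dnPI3K sham arrays. For Ntg hearts the values were 10.56, 10.94, 11.41 and 10.94 after MI, against 11.21, 11.35, 11.18 and 10.69 after sham. The dnPI3K sham arrays lay above the caPI3K sham arrays without overlap, and the difference of -0.42 (95% interval -0.75 to -0.10) had an adjusted p of 0.0929. It passed with only the groups compared in the fit (adjusted p = 0.00782) and with array quality weights (0.0491). *Igf2r*, which clears IGF2 and carries lysosomal enzymes, read 11.04, 11.26, 10.99 and 11.07 on caPI3K sham arrays, against 10.64, 10.81, 10.64 and 10.70 on dnPI3K sham arrays. The groups were apart, with a log2 change of 0.39 (SE 0.11, limma adjusted p = 0.0185). A second probe set of *Igf2r* read 0.01 for the same comparison, and the call was lost without dnPI3K sham replicate 1 or caPI3K sham replicate 2 (changes 0.37 and 0.34). On caPI3K MI arrays *Igf2r* read 10.93, 10.87, 10.75 and 10.67 and on dnPI3K MI arrays 10.46, 10.86, 10.76 and 10.68, while Ntg MI arrays read 10.37, 10.77, 11.07 and 10.65 and Ntg sham arrays 10.82, 10.84, 10.72 and 10.88. The infarcted groups overlapped, and the Ntg sham arrays lay below the caPI3K sham arrays.

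All 4 adaptors were called between caPI3K and dnPI3K sham hearts, and the docking proteins moved opposite to the inhibitory adaptors. *Irs1* (chr1:82233105-82291439), the docking protein that carries PI3K to the receptors, read 10.80, 10.92, 10.93 and 11.04 on caPI3K MI arrays and 10.59, 10.70, 10.37 and 10.62 on caPI3K sham arrays. On dnPI3K MI arrays it read 12.14, 12.32, 12.06 and 11.65 and on dnPI3K sham arrays 12.16, 12.05, 12.24 and 12.12. In Ntg hearts *Irs1* read 11.34, 11.48, 11.68 and 11.37 after MI, against 11.25, 11.17, 11.14 and 10.74 after sham. The dnPI3K arrays of both operations were the highest and lay above the Ntg arrays of the same operation, except that dnPI3K MI replicate 4 was just below Ntg MI replicate 3. The caPI3K arrays were the lowest, below all dnPI3K arrays and below the Ntg arrays of the same operation.

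In caPI3K sham relative to dnPI3K sham hearts *Irs1* fell with a log2 change of -1.57 (SE 0.12, limma adjusted p = 1.25e-09), which on the scale of signal plus 11.2 is 0.336 of the dnPI3K level (95% interval 0.285 to 0.397). After infarction the same difference was -1.12 (SE 0.12, limma adjusted p = 5.42e-07). In dnPI3K relative to Ntg hearts *Irs1* rose by 1.07 (SE 0.12, limma adjusted p = 5.66e-06) after sham, a 2.10-fold difference (1.78 to 2.47), and by 0.57 (SE 0.12, limma adjusted p = 0.00554) after MI. Within arrays 415 to 418 the sham difference was 0.89 and within arrays 1181 to 1191 it was 1.24.

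Between caPI3K and Ntg hearts *Irs1* was not called, with changes of -0.51 after sham (adjusted p = 0.0619) and -0.54 after MI (adjusted p = 0.179). Without Ntg sham replicate 4, which read 10.74, both passed, at -0.62 (adjusted p = 0.00302) and -0.54 (0.0321). Leaving out dnPI3K MI replicate 2 or 4, which are outside the comparison, also moved the sham value past the threshold (adjusted p = 0.0464 and 0.0207). The MI effect on *Irs1* was 0.36 in caPI3K, -0.10 in dnPI3K and 0.39 in Ntg hearts, none called (adjusted p = 0.153, 0.689 and 0.118). The MI effect in dnPI3K minus that in Ntg hearts was -0.49 (95% interval -0.83 to -0.16, adjusted p = 0.56).

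*Irs2* (chr8:10984681-11008929), the second docking protein of the heart, read 4.98, 4.80, 4.84 and 4.78 on caPI3K sham arrays, against 8.12, 8.49, 8.15 and 7.82 on dnPI3K sham arrays. The caPI3K sham signals, 16.4 to 20.4 units, were below the 40th percentile of their arrays (66.9 to 104 over all arrays), which puts them in the lower part of the range. The dnPI3K sham signals of 214 to 348 were above it on all 4 arrays. The log2 difference was -3.29 (SE 0.58, limma adjusted p = 0.00037), and it was -3.87 with a pseudocount of 1 and -2.25 with 50, so its size is not a measured fold. After infarction the caPI3K arrays read 6.33, 6.31, 4.91 and 4.85 and the dnPI3K arrays 8.44, 8.21, 6.81 and 6.27, with a difference of -1.83 (SE 0.58, limma adjusted p = 0.0772) that was not called.

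Ntg hearts were uneven for *Irs2*, with 6.33, 6.73, 4.65 and 6.56 on MI arrays and 8.04, 5.78, 7.48 and 4.95 on sham arrays, the widest spread of any adaptor. Against Ntg sham, *Irs2* differed by -1.71 in caPI3K sham and by 1.58 in dnPI3K sham hearts (adjusted p = 0.223 and 0.253). Without Ntg sham replicate 4, which read 4.95, the values were -2.25 and 1.04 (adjusted p = 0.0308 and 0.524). The infarcted caPI3K against dnPI3K value also passed without that array (adjusted p = 0.0413) and without dnPI3K MI replicate 4 (-2.22, adjusted p = 0.0365).

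*Grb14* (chr2:64912476-65022766), an adaptor that binds the active insulin receptor and inhibits it, was lowest in dnPI3K hearts. It read 12.85, 13.01, 13.00 and 12.84 on caPI3K MI arrays and 13.01, 13.06, 13.06 and 13.11 on caPI3K sham arrays. On dnPI3K MI arrays it read 11.96, 11.78, 12.03 and 12.12 and on dnPI3K sham arrays 12.14, 12.13, 12.47 and 12.31. For Ntg hearts the values were 12.54, 12.62, 12.85 and 12.96 after MI, against 12.83, 12.80, 12.75 and 13.07 after sham. Every dnPI3K array lay below every array of the other genotypes.

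*Grb14* rose in caPI3K relative to dnPI3K hearts, by 0.80 (SE 0.09, limma adjusted p = 1.45e-06) after sham and 0.95 (SE 0.09, limma adjusted p = 3.5e-07) after MI, folds of 1.74 and 1.94. It fell in dnPI3K relative to Ntg hearts, with log2 changes of -0.60 (SE 0.09, limma adjusted p = 0.000507) after sham and -0.77 (SE 0.09, limma adjusted p = 1.75e-05) after MI. In dnPI3K hearts *Grb14* also fell after infarction, with a log2 change of -0.29 (SE 0.09, limma adjusted p = 0.0479) and a complete separation of the MI from the sham arrays. That MI call was lost on leaving out any 1 of 17 of the 24 arrays, at changes of -0.33 to -0.22 (adjusted p up to 0.172). The dnPI3K minus Ntg sham difference was -0.68 within arrays 415 to 418 and -0.52 within arrays 1181 to 1191.

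*Grb10* (chr11:11930499-12037428), an imprinted relative of *Grb14* that also restrains both receptors, showed smaller differences in the same direction. It read 11.67, 11.86, 11.72 and 11.57 on caPI3K MI arrays and 11.63, 11.79, 11.71 and 11.65 on caPI3K sham arrays, against 11.26, 11.52, 11.33 and 11.50 on dnPI3K MI arrays and 11.24, 11.20, 11.23 and 11.33 on dnPI3K sham arrays. Ntg MI arrays read 11.49, 11.54, 11.58 and 11.72 and Ntg sham arrays 11.56, 11.47, 11.48 and 11.83. All caPI3K arrays lay above all dnPI3K arrays. The rise in caPI3K relative to dnPI3K was 0.45 (SE 0.08, limma adjusted p = 0.000568) after sham and 0.30 (SE 0.08, limma adjusted p = 0.032) after MI, and the fall in dnPI3K sham relative to Ntg sham was a log2 change of -0.34 (SE 0.08, limma adjusted p = 0.0387). Of the 2 dimmer probe sets of *Grb10*, 1 ran the other way, at 0.19 for dnPI3K sham against Ntg sham and -0.28 for caPI3K sham against dnPI3K sham, neither called. The fall in dnPI3K sham was lost without Ntg sham replicate 1 or 4, dnPI3K sham replicate 1, 2 or 3 or caPI3K sham replicate 3 (changes -0.35 to -0.26). The rise after MI was lost without dnPI3K MI replicate 1 or 3 or caPI3K MI replicate 1, 2 or 3 (changes 0.25 to 0.31).

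A further fit kept caPI3K sham replicate 4, which has no Y-linked signal, as the only caPI3K sham array. That lone array is assumed to vary like the other groups. The share of all tested genes called in that fit was not counted, so its calls are not read as a result about the members. The log2 differences from dnPI3K sham were -1.52 for *Irs1* (adjusted p = 8.49e-05), 0.85 for *Grb14* (0.00452), -0.91 for *Igfbp3* (0.0318) and -0.66 for *Akt1* (0.0331). Those of *Irs2*, *Igf1r*, *Grb10* and *Igfbp5* were -3.36, -0.91, 0.40 and 0.78, and were no longer called (adjusted p = 0.085, 0.0646, 0.167 and 0.232). The calls of *Igfbp4* (-0.49), *Igf2r* (0.37), *Pik3r3* (0.39), *Inppl1* (0.26), *Mtor* (0.30) and *Eif4ebp1* (-0.55) were lost too, at adjusted p of 0.105 to 0.682. In comparisons without caPI3K sham arrays the changes stayed as they were and 6 calls were lost, at adjusted p of 0.0532 to 0.0826. These were *Igf1r* in dnPI3K against Ntg after sham and after MI, *Grb10* in dnPI3K sham against Ntg sham and in caPI3K MI against dnPI3K MI, and *Igfbp5* in caPI3K MI against dnPI3K MI. The last was *Grb14* for MI in dnPI3K hearts. Between caPI3K and dnPI3K sham hearts 2 of 3 measured adipocyte markers, 1 of 10 fibroblast markers and 1 of 5 atrial markers were called lower in caPI3K. The summed signal of the 4 adipocyte markers with a probe set, of which 3 passed the filter, was 292 to 794 in caPI3K sham hearts. It was 1035 to 1723 in dnPI3K sham hearts. The atrial marker was *Nppa*, the stress-induced atrial peptide (-1.86, adjusted p = 4.12e-05), and the summed atrial signal was 18389 to 34645 in caPI3K sham, against 59835 to 70658 in dnPI3K sham hearts. *Nppa* was also called between dnPI3K sham and Ntg sham hearts (1.65, adjusted p = 0.000933), where the summed atrial signal in Ntg sham was 13691 to 57890. The other 4 atrial markers read higher in caPI3K sham than in dnPI3K sham hearts, and were called in neither comparison. Over all 5 atrial markers the median change there was 0.74. Their mean level was 11.30 in caPI3K sham, against 11.15 in dnPI3K sham hearts. The part of these markers in the result was not tested.

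**Figure D3:**
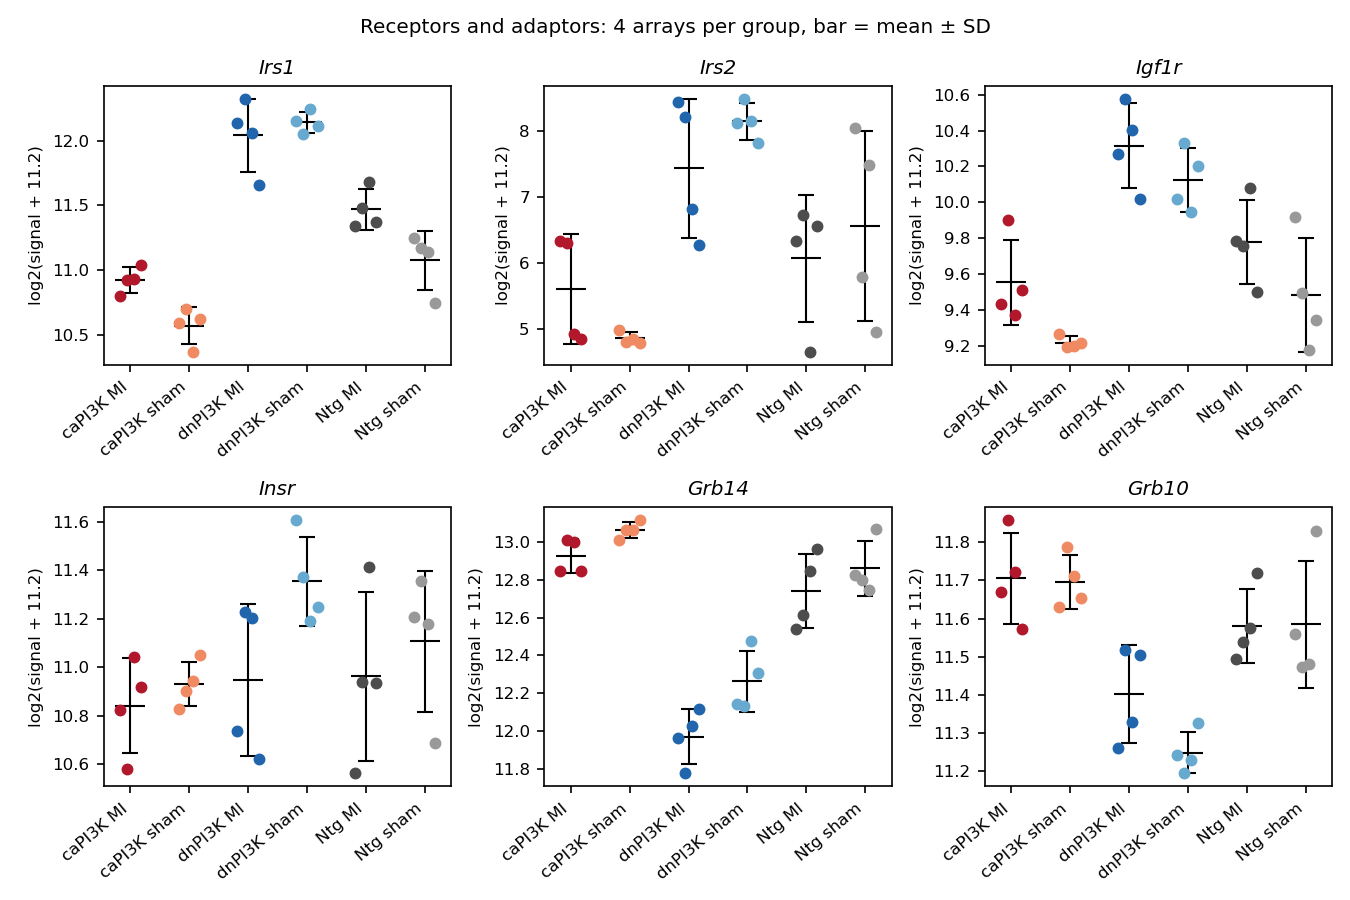
Levels of the receptors Igf1r and Insr and of the adaptors Irs1, Irs2, Grb14 and Grb10, log2(signal + 11.2), with 1 point per array and mean ± SD bars for the 6 groups of 4 arrays. Irs1 lies highest on dnPI3K and lowest on caPI3K arrays, Grb14 lies lowest on dnPI3K arrays, at 12.47 or below, and Irs2 sits at 4.78 to 4.98 on all caPI3K sham arrays.

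The genes of PI3K itself differed little. *Pik3ca* encodes p110 alpha, the catalytic subunit that receptor tyrosine kinases use, and whether its probe sets read the transgenes was not tested. It read 10.44, 10.67, 10.53 and 10.54 on caPI3K MI and 10.70, 10.56, 10.57 and 10.55 on caPI3K sham arrays, 10.31, 10.19, 10.67 and 10.44 on dnPI3K MI and 10.86, 10.30, 10.45 and 10.86 on dnPI3K sham arrays. In Ntg hearts *Pik3ca* read 10.39, 10.76, 10.93 and 10.70 after MI, against 10.69, 10.01, 10.78 and 10.79 after sham. All 6 groups overlapped, and the caPI3K sham minus dnPI3K sham difference of -0.02 had a 95% interval of -0.33 to 0.28.

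*Pik3r1* encodes the regulatory subunits p85 alpha and its short forms. It read 10.82, 10.82, 10.70 and 10.37 on caPI3K MI and 10.99, 11.11, 10.64 and 10.75 on caPI3K sham arrays, 10.54, 10.11, 10.44 and 10.53 on dnPI3K MI and 10.87, 10.67, 10.85 and 11.16 on dnPI3K sham arrays. For Ntg hearts the values were 10.70, 10.33, 10.78 and 10.97 after MI, against 11.13, 10.99, 11.28 and 10.41 after sham. The dnPI3K MI arrays were below the dnPI3K sham arrays without overlap, and the change of -0.48 missed the threshold (95% interval -0.81 to -0.16, adjusted p = 0.0553). It passed without Ntg sham replicate 3 or 4, Ntg MI replicate 2, dnPI3K sham replicate 2 or caPI3K MI replicate 4 (adjusted p 0.0193 to 0.0490).

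*Pik3r3*, the p55 gamma regulatory subunit, was the only PI3K subunit called with all arrays. It read 9.37, 9.56, 9.11 and 9.03 on caPI3K sham arrays, against 8.79, 8.49, 8.66 and 8.63 on dnPI3K sham arrays, with no overlap and a log2 change of 0.63 (SE 0.18, limma adjusted p = 0.0245). On caPI3K MI arrays it read 9.11, 9.04, 9.11 and 9.18 and on dnPI3K MI arrays 8.16, 8.87, 8.97 and 9.36, where the groups overlapped and the change of 0.27 was not called (adjusted p = 0.486). Ntg MI arrays read 8.90, 8.68, 9.09 and 8.92 and Ntg sham arrays 8.32, 8.74, 8.61 and 8.98. The sham call was lost without dnPI3K sham replicate 2 or caPI3K sham replicate 1 or 2 (changes 0.53 to 0.59), and the change was 0.39 with caPI3K sham replicate 4 alone. *Pik3cb* and *Pik3r2*, the other widely expressed subunits, and the leukocyte-rich *Pik3cd* and *Pik3cg* were not called in any comparison with all arrays. *Pik3cd* was listed at 11.35 on Ntg sham replicate 2 and at 9.13 to 10.15 on the other 23 arrays.

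*Inppl1* (chr7:101822632-101838226) encodes SHIP2, a phosphatase that removes the 5-phosphate from the lipid PI3K makes. It read 10.37, 10.75, 10.68 and 10.60 on caPI3K MI arrays and 10.72, 10.84, 10.68 and 10.51 on caPI3K sham arrays, against 10.29, 10.54, 10.51 and 10.53 on dnPI3K MI arrays and 10.19, 10.36, 10.19 and 10.26 on dnPI3K sham arrays. In Ntg hearts *Inppl1* read 10.60, 10.79, 10.63 and 10.74 after MI, against 10.69, 10.56, 10.54 and 10.95 after sham. The dnPI3K sham arrays lay below all caPI3K and Ntg arrays, and the dnPI3K MI arrays below all Ntg MI arrays. *Inppl1* fell in dnPI3K sham relative to Ntg sham hearts, with a log2 change of -0.43 (SE 0.10, limma adjusted p = 0.0198), and rose in caPI3K sham relative to dnPI3K sham hearts, with a log2 change of 0.44 (SE 0.10, limma adjusted p = 0.00364). Neither difference was called after MI, at -0.22 for dnPI3K against Ntg (adjusted p = 0.272) and 0.13 for caPI3K against dnPI3K (adjusted p = 0.546). The fall in dnPI3K sham was lost without Ntg sham replicate 4 (-0.34) or without dnPI3K sham replicate 1 or 3 (both -0.41). The rise in caPI3K sham was 0.26 with replicate 4 as the only caPI3K sham array. *Inpp5d*, the related SHIP1 of blood cells, and *Phlpp1*, which dephosphorylates Akt, were not called.

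*Akt1* (chr12:112653821-112674884), one of the Akt kinases, fell in caPI3K sham relative to dnPI3K sham hearts. It read 9.76, 9.58, 9.82 and 9.77 on caPI3K MI arrays and 9.72, 9.60, 9.55 and 9.59 on caPI3K sham arrays, against 10.14, 9.98, 9.81 and 10.11 on dnPI3K MI arrays and 10.28, 10.32, 10.22 and 10.16 on dnPI3K sham arrays. For Ntg hearts the values were 9.73, 9.87, 9.99 and 9.68 after MI, against 10.12, 9.77, 10.06 and 9.99 after sham. The sham arrays of the transgenic groups were far apart and the Ntg sham arrays lay between them, with a log2 change of -0.63 (SE 0.10, limma adjusted p = 6.76e-05) for caPI3K sham against dnPI3K sham. A second probe set of *Akt1* gave -0.69 (adjusted p = 0.000194), and another, dim one gave -0.05. After MI the groups overlapped narrowly, with a difference of -0.28 that was not called (adjusted p = 0.108). Against Ntg sham, *Akt1* differed by -0.37 in caPI3K sham and by 0.26 in dnPI3K sham hearts, neither called (adjusted p = 0.0994 and 0.255). After MI in dnPI3K hearts *Akt1* changed by -0.23, which was not called (limma adjusted p = 0.145). Another of its probe sets was called there, at -0.37 (limma adjusted p = 0.0463).

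*Akt2*, the Akt of insulin-driven glucose uptake, read 9.85, 9.87, 10.20 and 9.92 on caPI3K MI and 9.97, 10.18, 10.11 and 10.18 on caPI3K sham arrays, 10.03, 10.05, 10.22 and 10.14 on dnPI3K MI and 10.26, 10.33, 10.39 and 10.42 on dnPI3K sham arrays. Ntg MI arrays read 10.05, 10.01, 10.33 and 10.06 and Ntg sham arrays 10.27, 10.44, 10.24 and 10.08. Differences were small, the caPI3K sham arrays lying just below the dnPI3K sham arrays, with a difference of -0.24 (95% interval -0.44 to -0.04, adjusted p = 0.122). By its brightest probe set *Akt2* was called in no comparison. Its change after MI in dnPI3K hearts was -0.24 (limma adjusted p = 0.126). With the mean over its probe sets that change was called, at -0.48 (limma adjusted p = 0.0481). *Pdpk1*, which encodes PDK1, *Gsk3a* and *Gsk3b*, the glycogen synthase kinases that Akt inhibits, and *Trib1* and *Trib3*, pseudokinases of which Trib3 binds Akt, were not called either. *Gsk3b* was the steadiest of these, at 10.49 to 10.80 over all 24 arrays, and *Trib1* was dim, above the 40th percentile of its array on 6 of them.

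*Mtor*, the kinase of both mTOR complexes, read 10.11, 10.22, 10.20 and 10.07 on caPI3K sham arrays, against 10.16, 9.55, 9.53 and 9.84 on dnPI3K sham arrays. It rose in caPI3K sham with a log2 change of 0.38 (SE 0.11, limma adjusted p = 0.0253), but the groups overlapped because dnPI3K sham replicate 1 read like the caPI3K arrays. The call was lost without dnPI3K sham replicate 2 or 3 or caPI3K sham replicate 2 or 3 (changes 0.30 to 0.36). On caPI3K MI arrays *Mtor* read 10.15, 10.02, 10.15 and 10.22 and on dnPI3K MI arrays 9.98, 10.08, 9.97 and 10.12, while in Ntg hearts *Mtor* read 9.94, 10.15, 10.10 and 10.32 after MI, against 10.17, 9.95, 9.89 and 10.01 after sham. No infarct effect on *Mtor* was called, the largest being 0.27 in dnPI3K hearts (adjusted p = 0.137, and 0.0178 at a change of 0.40 without dnPI3K sham replicate 1).

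*Eif4ebp1* (chr8:27260327-27275656) encodes 4E-BP1, which holds back translation until mTOR phosphorylates it. It read 12.37, 12.33, 12.16 and 12.26 on caPI3K MI arrays and 12.33, 12.06, 12.10 and 12.23 on caPI3K sham arrays, against 12.55, 12.54, 12.55 and 12.34 on dnPI3K MI arrays and 12.90, 12.88, 12.76 and 12.62 on dnPI3K sham arrays. For Ntg hearts the values were 12.30, 12.41, 12.48 and 12.32 after MI, against 12.69, 12.78, 12.60 and 12.12 after sham. The caPI3K sham arrays lay below the dnPI3K sham arrays without overlap, and Ntg sham arrays spanned both. *Eif4ebp1* fell in caPI3K sham relative to dnPI3K sham hearts, with a log2 change of -0.61 (SE 0.10, limma adjusted p = 0.00022), and a second probe set gave -0.54 (adjusted p = 0.00018). A dimmer one gave -0.35 and was not called (adjusted p = 0.214). The infarcted groups differed by -0.22, which was not called (adjusted p = 0.285). *Tsc1*, *Tsc2* and *Rheb*, the switch above mTOR, *Rptor* and *Rictor*, which define its complexes, *Rps6*, a ribosomal protein phosphorylated below it, and *Eif4ebp2* were not called.

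**Figure D4:**
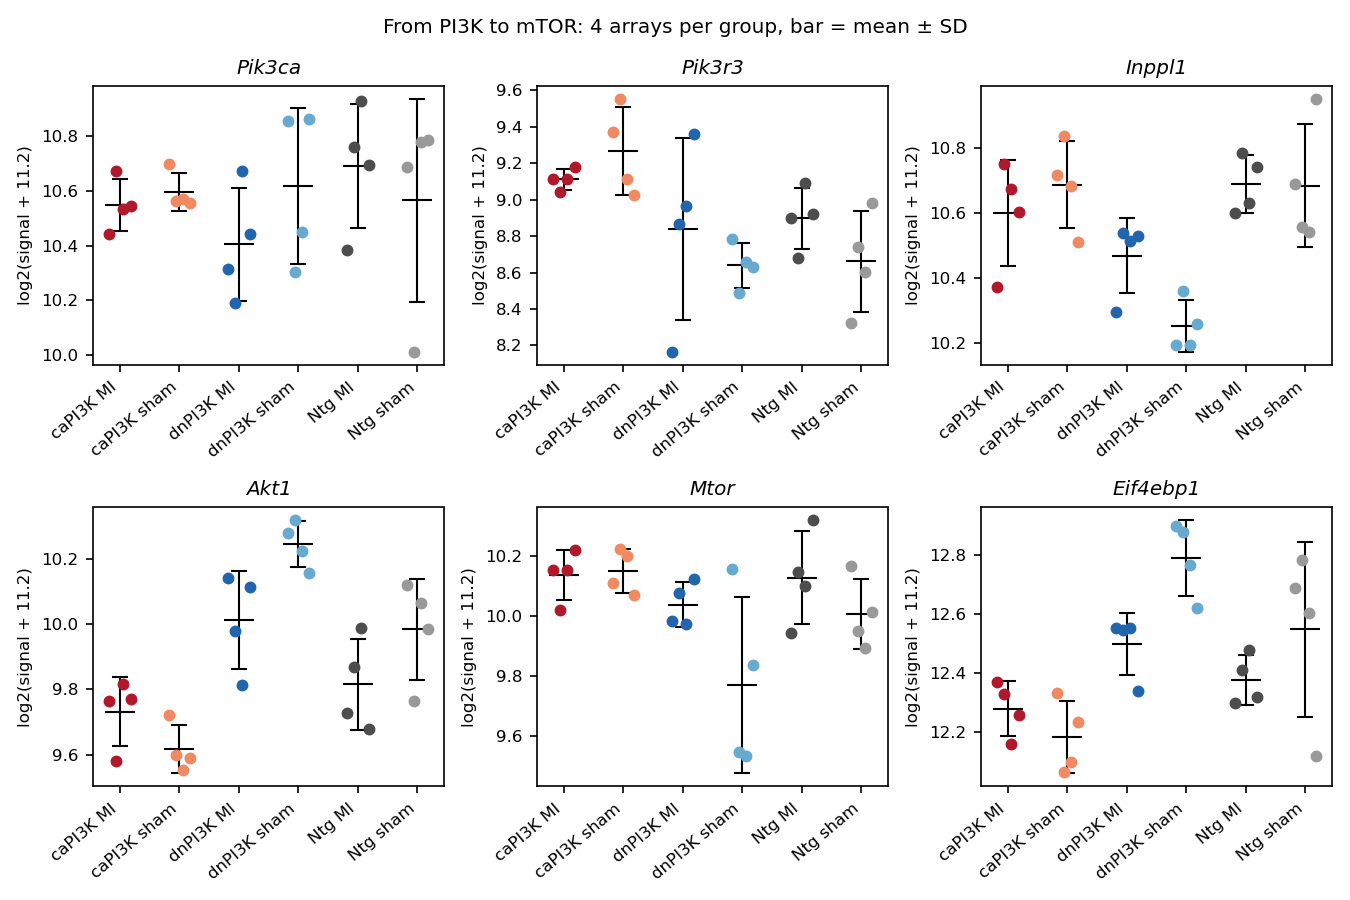
Levels of Pik3ca, Pik3r3, Inppl1, Akt1, Mtor and Eif4ebp1, log2(signal + 11.2), with 1 point per array and mean ± SD bars for the 6 groups of 4 arrays. The groups overlap for Pik3ca, while Akt1 and Eif4ebp1 lie lower and Inppl1 and Pik3r3 higher on caPI3K sham than on dnPI3K sham arrays.

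Leaving out Ntg sham replicate 4 brought further calls. The share of all tested genes called without it was not counted, so these calls are not read as a result about the members. Between caPI3K and Ntg sham hearts, where none was called, 5 were called without it. These were *Igfbp5* (0.84), *Irs1*, *Irs2*, *Pik3r3* (0.71) and *Eif4ebp1* (-0.51), at adjusted p of 0.000112 to 0.0385. Between dnPI3K and Ntg sham hearts *Igfbp4* (0.42), *Igfbp6* (0.67), *Igfbp7* (0.38) and *Pik3cd* (-0.94) were called without it (0.0386 to 0.0477). For MI, *Pik3cd* (-0.90) and *Eif4ebp1* (-0.31) passed in Ntg hearts (0.0236 and 0.0254), and *Igf2* (-0.55) and *Eif4ebp1* (-0.29) in dnPI3K hearts (0.0285 and 0.0125). Both *Pik3cd* calls include Ntg sham replicate 2, which read 11.35. Its dnPI3K sham minus Ntg sham difference was -1.19 within arrays 415 to 418, which hold that replicate, and -0.16 within arrays 1181 to 1191. *Igfbp7* passed in caPI3K against dnPI3K hearts after sham (-0.32) and after MI (-0.35), and in dnPI3K MI against Ntg MI hearts (0.42), where *Igfbp5* (-0.39) passed as well, at adjusted p of 0.00352 to 0.0327.

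In all 14 members called between caPI3K and dnPI3K sham hearts the Ntg sham mean lay between those of the transgenic groups. The same held for 96.2% of all 1459 genes called in that comparison, and for 25 of the 41 members against 45.9% of all tested genes. The median size of the difference, whatever its sign, was 0.30 over the members and 0.21 over all tested genes.

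**Figure D5:**
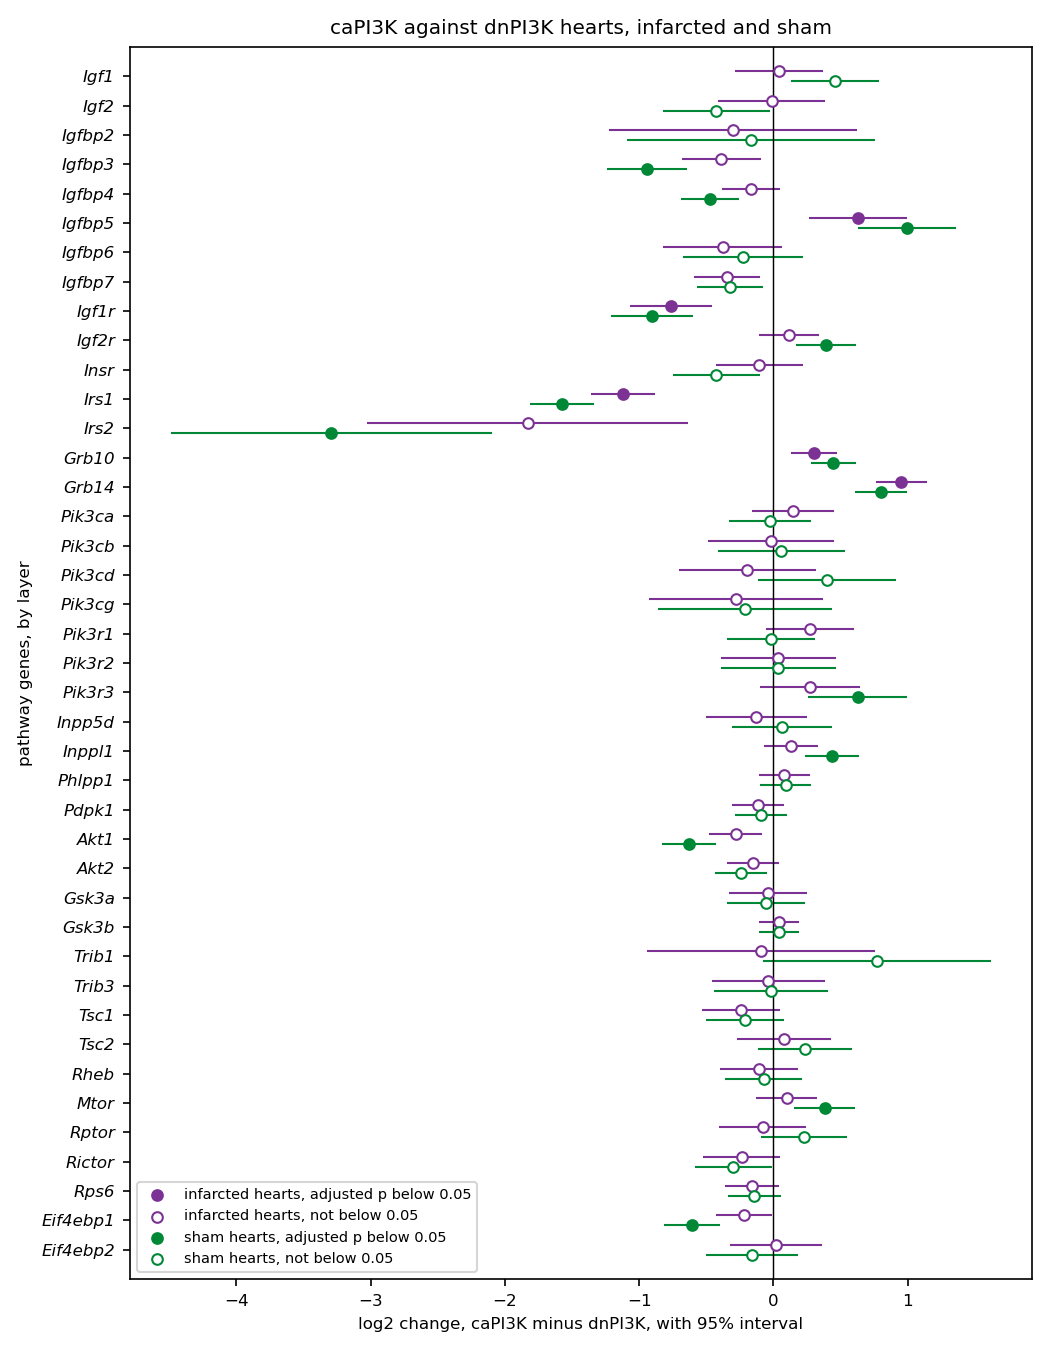
Log2 change with its 95% interval, caPI3K minus dnPI3K, for the 41 measured members (rows, from ligands at the top to mTOR at the bottom), in infarcted (purple) and sham hearts (green), with filled points for an adjusted p below 0.05. Irs1 stands at -1.12 in infarcted and -1.57 in sham hearts and Grb14 at 0.95 and 0.80, Irs2 has the widest intervals, and Pik3ca and Pik3r1 lie at -0.02 in sham hearts.

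Another 66 pathway genes were measured, from a list that also holds further adaptors, phosphatases, glucose transport and translation genes. Infarction called 5 of them in dnPI3K hearts, 1 higher and 4 lower, a share of 7.58% that is below the 9.42% of all tested genes, and none in caPI3K or Ntg hearts, where 9 had an unadjusted p below 0.05 in each. *Slc2a4*, the insulin-driven glucose transporter GLUT4, fell by 0.56 on the log2 scale, and *Tbc1d4*, the Akt substrate that controls its traffic, fell by 0.67 (limma adjusted p = 0.000767 and 0.000662). All 3 measured adipocyte markers read lower in the same comparison, 1 of them called (*Adipoq*, -1.29, limma adjusted p = 0.00976). The summed signal of the 4 adipocyte markers with a probe set, of which 3 passed the filter, was 288 to 1428 in dnPI3K MI hearts. It was 1035 to 1723 in dnPI3K sham hearts. The 10 cardiomyocyte markers also all read lower there, with a median change of -0.21 and 1 called (limma adjusted p = 0.0131). The part of both sets of markers in this result was not tested. *Eif4e*, the cap-binding factor that 4E-BP1 holds, fell by 0.43 and *Htra1*, a protease that cuts IGF-binding proteins, fell by 0.37, while *Gab2*, a docking protein, rose by 0.62 (adjusted p = 0.0237, 0.0137 and 0.00257). The differences of MI effects between genotypes were called for none of the 66 by limma. At an unadjusted p below 0.05 there were 6 between caPI3K and dnPI3K, 4 between caPI3K and Ntg and 8 between dnPI3K and Ntg. The share of all tested genes at that unadjusted threshold was not counted, so these counts are not read as a result.

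Between caPI3K and dnPI3K sham hearts 7 of the 66 were called, 4 higher and 3 lower in caPI3K (9.88% of all tested genes were called there). *Akt1s1*, the mTOR inhibitor PRAS40, was higher by 0.62, *Ppp2r2a*, a subunit of the phosphatase PP2A, by 0.45, the adaptor *Grb2* by 0.36 and *Ptpn11*, the phosphatase SHP2, by 0.33. *Rragd*, a GTPase of amino acid sensing, fell by 0.35, *Htra1* fell by 0.33 and *Eif4b*, an initiation factor, fell by 0.27. Adjusted p-values of the 7 ran from 0.000106 for *Ppp2r2a* to 0.037 for *Ptpn11*. Between infarcted groups *Eif4e* and *Grb2* were higher in caPI3K MI than in dnPI3K MI hearts and *Eif4e* was lower in dnPI3K MI than in Ntg MI hearts. None of the 66 was called between dnPI3K and Ntg sham or between caPI3K and Ntg sham hearts. In each, 6 had an unadjusted p below 0.05, and the share of all tested genes at that threshold was not counted.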

How the data were processed

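Total RNA of mouse hearts was measured on 24 Affymetrix arrays. The deposited values are signal intensities, attributed to MAS5 per the submitters' processing notes, with no version or scaling target given. Each array has a mean of 500.003 to 500.004 after trimming 2% at each end, so no further normalization was applied. Of 45101 probe sets, 64 controls were left out. The platform annotation gives 34945 of them 1 gene, 932 several and 9160 none. A probe set was kept above the 40th percentile of its array on at least 4 arrays, which left 33061. The probe set with the highest mean log2 level stood for its gene, which left 14763 genes, and all 41 named members passed.

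On log2(signal + 11.2), the pseudocount being the median signal divided by 10, limma 3.58.1 (R 4.3.3) fitted 6 group means with an intensity trend and 18 residual degrees of freedom. Benjamini-Hochberg adjustment ran over all genes. Comparisons were MI against sham in each genotype, their 3 differences, and the 3 pairs of sham groups. The 3 pairs of infarcted groups were added after seeing the data. Members called in at least 1 comparison, and 10 of the main chain, are given on every array. Other pathway genes are named only where called, at most 8 in each comparison. Members and lists were chosen with earlier results of these data known. The caPI3K MI arrays have a label tag named caPI3K-sham, but their titles and descriptions give MI, which was used. Alternatives changed the normalization, pseudocount, filter, probe set, variance model, arrays in the fit and array number. The code was tested on simulated data. Promoters are RefSeq windows of GRCm38.p6, and figures used matplotlib 3.10.9 under Python 3.11.15. The number of arrays limits precision, and nothing in the labels says what the array numbers in the titles stand for.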

Additional observations from a re-analysis of the deposited data

Results flagged for a closer look

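In 16 of 246 groups of 4 arrays, taken over the 41 members, 1 array lay far outside the other 3, where chance alone would mark about 1 group in 20. Ntg sham replicate 4 was high for 3 binding proteins, *Igfbp4* at 12.31 (others 11.95 to 12.00), *Igfbp5* at 12.12 (10.87 to 10.95) and *Igfbp6* at 10.95 (9.53 to 9.75). On that array the fibroblast marker mean was 12.29, and its part in these values was not tested.

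In Ntg MI hearts, *Igfbp4* was high on replicate 1 at 12.83 (others 12.45 to 12.50) and *Igfbp6* low on replicate 3 at 10.24 (10.85 to 10.91). *Pdpk1* was low on replicate 1 at 10.74 (11.00 to 11.04), *Rheb* low on replicate 2 at 13.35 (13.66 to 13.70) and *Akt2* high on replicate 3 at 10.33 (10.01 to 10.06). In dnPI3K MI hearts, replicate 4 read 11.52 for *Igfbp5* (others 10.97 to 11.04) and 12.34 for *Eif4ebp1* (12.54 to 12.55), and replicate 1 read 10.29 for *Inppl1* (10.51 to 10.54). In caPI3K MI hearts *Igf2* was low on replicate 2 at 8.88 (9.15 to 9.17).

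Among sham hearts *Pik3ca* was high on caPI3K replicate 1 at 10.70 (others 10.55 to 10.57) and low on Ntg replicate 2 at 10.01 (10.69 to 10.79). *Pik3cb* was low on dnPI3K replicate 1 at 7.20 (7.78 to 7.88), and *Trib1* was high on Ntg replicate 3 at 6.69 (5.89 to 5.99).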

How the results depend on the processing

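No paired analysis was possible because the replicate numbers follow the order of deposit and pair no arrays. Counts of called members moved with the fit, and the share of all tested genes called is not given for these fits. For MI in Ntg hearts the count of 2 became 0 with the mean over a gene's probe sets, without the intensity trend, with only the groups compared, and without sham arrays 415 to 418, and ran from 0 to 6 leaving out single arrays. For MI in dnPI3K hearts the count of 5 became 2 without the trend and without arrays 415 to 418, 8 with array quality weights, and ran from 1 to 9. For MI in caPI3K hearts the count of 3 became 5 with only the groups compared and 0 without the Y-linked caPI3K sham arrays, and ran from 2 to 4. For dnPI3K sham against Ntg sham the count of 5 became 3 with the mean over probe sets, 2 without the trend, 2 with only the groups compared, 1 without arrays 415 to 418 and 3 without the Y-linked arrays, and ran from 3 to 6. For caPI3K sham against Ntg sham the count of 0 became 1 with the filter on all 24 arrays and 5 with quality weights, and ran from 0 to 5. For caPI3K sham against dnPI3K sham the count of 14 became 4 without the Y-linked arrays, which leaves 1 caPI3K sham array, and ran from 11 to 15. The differences of MI effects stayed at 0 on leaving out any single array. Between infarcted groups, the count for caPI3K against dnPI3K of 5 became 2 with the mean over probe sets, 3 without the trend and 3 without the Y-linked arrays, and ran from 3 to 7. That for caPI3K against Ntg of 0 became 1 with quality weights and ran from 0 to 1, and that for dnPI3K against Ntg of 3 ran from 2 to 5. Leaving out Ntg sham replicate 4 gave the highest of these counts in each comparison named above, and for caPI3K sham against dnPI3K sham other arrays gave it too. Dimmer probe sets ran the other way for *Igfbp7* with MI in Ntg hearts (-0.20), *Igf1r* in dnPI3K sham against Ntg sham (-0.11) and *Grb10* in dnPI3K sham against Ntg sham (0.19), caPI3K sham against dnPI3K sham (-0.28) and caPI3K MI against dnPI3K MI (-0.11). No other alternative turned the sign of a called member. The causes were not tested. Quantile normalization moved the median of all genes by less than 0.1. Dim genes such as *Irs2* are limited by the pseudocount.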
